A study of Homo sapiens with 6 samples.

Results

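The 35 genes described here encode the machinery that burns fatty acids in mitochondria and peroxisomes, together with transcription factors that control it and lipid droplet proteins that supply it. They were listed by symbol, and each symbol was matched to an Ensembl gene among the 58302 genes counted in the RNA-seq files. All 35 had enough reads to be tested, among 15075 genes in all. The members were read in libraries labelled MDA-MB-231, a breast cancer cell line, expressing either a control shRNA (3 repeats) or Smyca shRNA #1, cloned in pLKO.1 (3 repeats). Smyca is a lncRNA, counted in these files as MIR23AHG, and 1 of the hairpins against it was sequenced, so an effect of this hairpin cannot be told apart from an effect of Smyca. The study calls the repeats biological repeats, but neither it nor the labels say whether they are separate cultures, and p-values therefore measure the spread between these samples. In bulk RNA, fewer cells of a type and less RNA per cell cannot be told apart.

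Fatty acid oxidation begins when an acyl-CoA is handed to carnitine by CPT1A at the outer mitochondrial membrane, carried inside by SLC25A20 and returned to CoA by CPT2. In the matrix, repeated rounds of dehydrogenation, hydration, a second oxidation and thiolysis release acetyl-CoA, and the electrons taken by the acyl-CoA dehydrogenases pass through the electron transfer flavoprotein to the respiratory chain. Peroxisomes shorten very long and branched acyl chains with their own enzymes, and the nuclear receptors PPARA and PPARD, with the coactivator PPARGC1A, activate many genes of both routes. PLIN2 coats lipid droplets and PNPLA2 starts the breakdown of the triglyceride stored in them.

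The hairpin target and 3 promoters are shown first, because the comparison rests on the former and the results turn on the genes of the latter. The target of the Smyca hairpin was read from the supplement of the study.
Smyca shRNA #1: gcatagataggtgggtgagtg
It occurred in 0 of the 578 GENCODE release 44 transcripts of the 35 members. The labels do not name the control hairpin, so its target is not shown. ACADM and ACADVL encode acyl-CoA dehydrogenases that lay on opposite sides of the comparison, and PLIN2 had the largest fold change among the members with an unadjusted p under 0.05. Their RefSeq promoters (GRCh38.p14, from 250 bases before to 50 bases after the annotated start, written on the strand of the gene) are given below, with capitals for GC boxes (GGGCGG or, on the other strand, CCGCCC) and for the E-box CACGTG that MYC/MAX binds.
ACADM, chr1:75724459-75724758, plus strand: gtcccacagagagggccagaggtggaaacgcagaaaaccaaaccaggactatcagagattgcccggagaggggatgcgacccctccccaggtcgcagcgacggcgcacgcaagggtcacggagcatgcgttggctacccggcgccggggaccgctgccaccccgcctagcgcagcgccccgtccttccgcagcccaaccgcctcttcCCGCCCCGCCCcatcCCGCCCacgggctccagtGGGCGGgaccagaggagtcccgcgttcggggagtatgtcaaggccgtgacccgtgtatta
ACADVL, chr17:7216875-7217174, plus strand: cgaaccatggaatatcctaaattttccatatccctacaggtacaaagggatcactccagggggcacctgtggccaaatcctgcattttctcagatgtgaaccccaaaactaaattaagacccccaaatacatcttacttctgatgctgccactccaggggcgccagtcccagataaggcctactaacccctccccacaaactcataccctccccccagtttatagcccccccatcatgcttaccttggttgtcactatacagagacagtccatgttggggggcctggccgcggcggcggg
PLIN2, chr9:19127443-19127742, minus strand: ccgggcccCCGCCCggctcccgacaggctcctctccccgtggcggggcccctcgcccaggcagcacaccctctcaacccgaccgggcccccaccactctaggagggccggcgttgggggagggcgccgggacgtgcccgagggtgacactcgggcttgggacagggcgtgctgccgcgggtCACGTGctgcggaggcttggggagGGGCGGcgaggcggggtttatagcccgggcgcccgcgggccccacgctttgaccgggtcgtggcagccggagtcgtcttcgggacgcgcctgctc
The ACADM window held 4 GC boxes and the ACADVL window held 0 of the capitalised motifs. The PLIN2 window held 2 GC boxes and 1 E-box, whose first base lies at position -69 from the start. GC content was 68.7% for ACADM, 52.7% for ACADVL and 76.7% for PLIN2.

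RefSeq gave a promoter for 29 of the 35 members, the first listed start being used where there are several. CRAT, ETFDH, DECR1, DECR2, EHHADH and ACAA1 had none in the table. On either strand, the direct repeat that PPAR/RXR dimers bind (AGGTCA, any 1 base, and AGGTCA again) matched in 0 of the 29 windows and in 0.022% of all 27305 promoters. Its half-site AGGTCA occurred in 1 member, PNPLA2 (3.45%), against 13.9% of all promoters. The estrogen-related receptor element TCAAGGTCA and the SMAD element GTCTAGAC occurred in 0 members, against 0.359% and 0.201% of all promoters. CACGTG was present in 4 members (ACAD9, PECR, PLIN2 and PPARGC1A; 13.8%, against 7.43% of all promoters). ACGTG, the core of the hypoxia response element and itself part of CACGTG, was present in 6 members (20.7%, against 21.6%). GC boxes were found in 25 members (86.2%, against 44.6%) and CCAAT in 7 (24.1%, against 35.7%). These matches describe the letters of the windows, and binding was not measured here.

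Before the members are compared, some properties of the libraries need stating. Total counts ranged from 14999307 to 16501085, and MIR23AHG was 2.88 times as high in the control (adjusted p = 0.111, edgeR's quasi-likelihood test), with no overlap between the groups. In control repeat 2 the deposited FPKM column did not follow its own counts but resembled the counts of control repeat 3 (Pearson's r = 0.996 across 12231 genes, which are not independent replicates, against 0.952 with its own counts). Control repeat 3 differed from the other control repeats, so the counts of members, and the genes that move most, are also given without it and with the reads behind that FPKM column. Of 13 genes that mark MDA-MB-231 cells, 12 were above 1 CPM in every library, and their sum was 1789 to 2941 CPM in the control and 1552 to 2025 CPM in the knockdown, whereas SPARC stayed under 1 CPM. Of the 12 that were tested, 11 were higher in the control, with a median log2 fold change of 0.85, and 9 had an unadjusted p under 0.05 (75%, against 19.2% of all genes). VIM, the mesenchymal filament among these markers, ranged only from 71.2 to 305 CPM, and per length it was at 117 RPKM (counts scaled by gene length and library size, mean of the 6 libraries) against 4242 RPKM for the luminal keratin KRT8 and 1662 RPKM for KRT19. Of the other markers of the line, LGALS1, S100A4 and MSN were higher than VIM, at 913, 889 and 468 RPKM. FOSL1 was at 118 RPKM, and CAV1, CAV2, AXL, CD44, ANXA1, EGFR and ZEB1 were at or below 46.1 RPKM. The luminal genes ESR1, PGR and FOXA1 were at or near 0. A list of 15 gut and liver genes summed to 459.5 to 711 CPM in the control and 833 to 931 CPM in the knockdown, with HNF4A from 65.4 to 194 CPM and VIL1, of the gut epithelial brush border, from 220.5 to 501 CPM, while ALB, AFP, TTR, FGB and APOA1 were at or near 0. Fibroblast, immune and endothelial lists summed to at most 10.5 CPM. The keratin, HNF4A and VIL1 levels beside that of VIM go against the labelled cell line, a mesenchymal-type breast line. The LGALS1, S100A4 and MSN levels, and the gut genes that were absent or low, go the other way. The identity of the cells was not tested, and the libraries are called here by their labels. The part of these lists in the results below was not tested.

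A gene was counted as a differentially expressed gene (DEG) if its adjusted p was under 0.05 and its ratio of control over Smyca knockdown reached 1.5 or lay at 0.66 or below. By this rule 0 of the 35 members were DEGs (edgeR's quasi-likelihood test), against 0.0265% of all genes tested (4 genes), and 5 members had an unadjusted p under 0.05. DESeq2 also called 0 members, against 5.44% of all genes (820). Those 5 members at an unadjusted p under 0.05 were 14.3% of the list, against 19.2% of all genes. ACADVL, PLIN2 and PNPLA2 were on the control side, and ACADM and ACAD9 on the knockdown side. With 1 library left out this count ranged from 0 members (without control repeat 1) to 10 (without control repeat 3), and it was 1 without knockdown repeat 2, 2 without control repeat 2 and 3 without knockdown repeat 1, while the share of all genes ranged from 10.8% to 29.6%. The groups did not overlap in 7 members (20%), against 24.8% of all genes. ACADVL, ECI2 and PNPLA2 had every control library above every knockdown library, and ACADM, ACADSB, ACAD9 and HADH had the reverse. Both shares were near those of all genes. When the libraries were scaled by total counts alone, the non-overlapping members were 5 higher and 3 lower in the control in place of 3 and 4, while the shares of all genes became 16.1% and 8.46% in place of 12.4% and 12.5%. The ratio criterion alone was met by 2 members, PPARA and PLIN2 (5.71%), against 21.2% of all genes. Without control repeat 1 neither met it, with log2 fold changes of 0.57 and 0.42.

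Across the list, 14 members had a positive log2 fold change (control over knockdown) and 21 a negative one, whereas 53.4% of all genes were positive and 46.6% negative. The median was -0.09 for the members and 0.04 for all genes, and the median size without sign was 0.22 and 0.29. The standard error (SE) of a member's log2 fold change had a median of 0.19 and ranged from 0.14 (ACADM) to 0.78 (PPARGC1A). The lowest adjusted p of any member was 0.165, for ACADM (edgeR's quasi-likelihood test, Benjamini-Hochberg over 15075 genes).

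**Figure D1:**
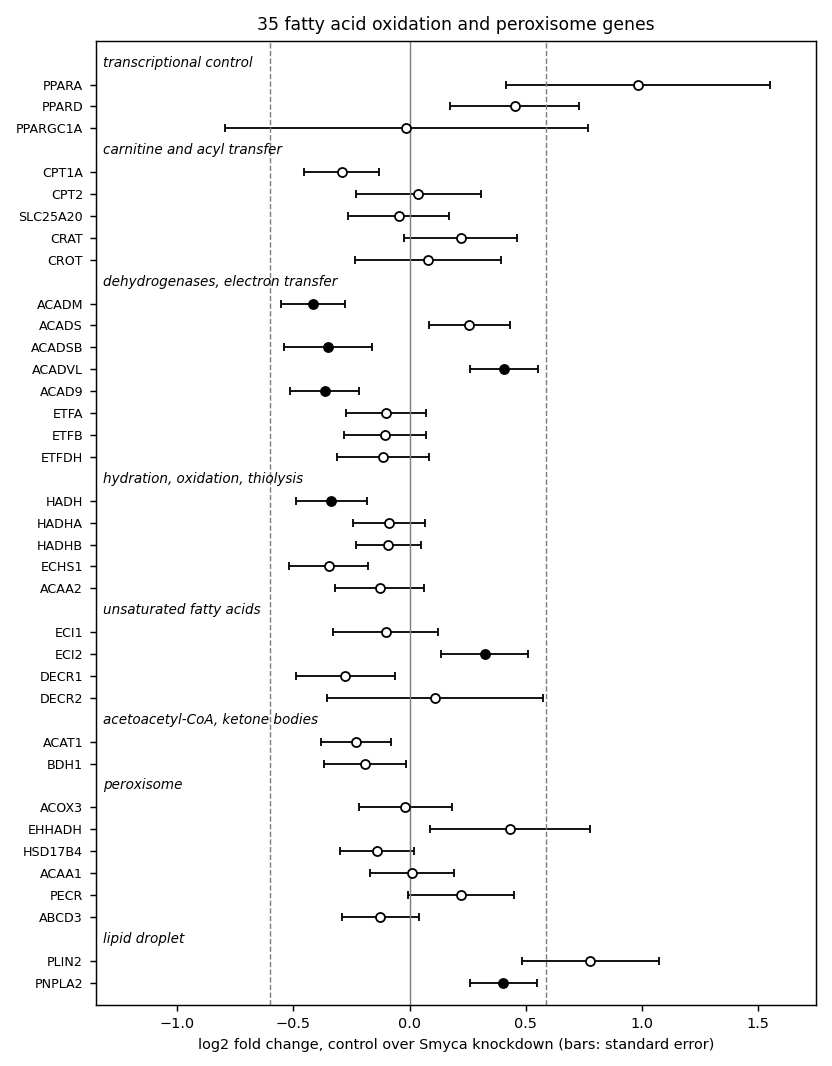
Log2 fold change (x axis, control over Smyca knockdown, with its standard error) of each of the 35 members, grouped by role. Filled points are the 7 members whose groups do not overlap, and dashed lines mark the ratios 1.5 and 0.66. Only PPARA and PLIN2 lie beyond a dashed line, and the error bar of PPARA (0.57) is among the widest.

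Levels were compared between genes per length, as RPKM, the counts scaled by gene length and library size, averaged over the 6 libraries. ACADVL, the dehydrogenase for very long chains, was at 831 RPKM. It stood far above the next members, ETFA at 188 and HADHA at 170.1 RPKM. ECI1, ACAT1, PLIN2 and ECHS1 followed at 119, 116, 112 and 100.2 RPKM. The members with the lowest levels were CPT2 (3.48 RPKM), CROT (1.76), PPARA (1.59) and PPARGC1A (0.477), and the other 24 lay between 5 and 100 RPKM. The most abundant member was thus a mitochondrial dehydrogenase, and the 4 lowest were acyl transferases and regulators of transcription.

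Among the regulators, PPARA, the nuclear receptor that induces fatty acid oxidation in fasting liver, had normalized CPM (counts scaled to a common library size) of 7.34, 5.97 and 1.34 in the control and 2.79, 1.58 and 3.04 in the knockdown. Control repeats 1 and 2 were above all knockdown libraries and control repeat 3 was below all of them. The log2 fold change was 0.98 (SE 0.57, adjusted p = 0.379). PPARD, its more widely expressed relative, had the same arrangement, with 67.9, 60.8 and 29.4 CPM in the control and 39.3, 38.4 and 37.8 CPM in the knockdown. Its log2 fold change was 0.45 (SE 0.28, adjusted p = 0.404), and the control SD of 20.5 CPM compared with 0.772 CPM in the knockdown (n = 3 each). PPARGC1A, the coactivator of both, was barely detected, at 0.740, 0.615 and 0.704 CPM in the control and 0.127, 0.317 and 1.65 CPM in the knockdown, with as few as 2 reads in a library. The log2 fold change of PPARGC1A was -0.01 (SE 0.78), a value set by knockdown repeat 3, which held 25 reads against 2 and 5 in the other knockdown libraries. Without that library it was 1.59 (unadjusted p = 0.0359, adjusted p = 0.231, edgeR's quasi-likelihood test).

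In the counts as deposited, 0 of the 5 members of the carnitine system had separate groups (24.8% of all genes did). CPT1A, which commits long-chain fatty acids to mitochondria, had 82.6, 104 and 87.2 CPM in the control and 101, 106 and 129 CPM in the knockdown. Control repeat 2 lay inside the knockdown range, and the log2 fold change was -0.29 (SE 0.16, adjusted p = 0.359). With the FPKM reads of control repeat 2 the groups of CPT1A separated, at a log2 fold change of -0.40 (unadjusted p = 0.0237 and adjusted p = 0.181 in edgeR's quasi-likelihood test). CRAT, the acetyl transferase, had 35.2, 40.3 and 21.6 CPM against 26.3, 24.2 and 32.8 CPM, so that control repeats 1 and 2 were above the knockdown range and control repeat 3 below it. CPT2, SLC25A20 and CROT, the peroxisomal octanoyl transferase, had log2 fold changes of 0.04, -0.05 and 0.08, each smaller than its SE (0.27, 0.22 and 0.31), and CROT moved to 0.59 with the FPKM reads (adjusted p = 0.407).

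The acyl-CoA dehydrogenases and their electron acceptors, 8 members, held 4 of the 7 without overlap (50%, against 24.8% of all genes), and the 4 did not point one way. ACADM (medium chains; ENSG00000117054, chromosome 1, 75724431 to 75787575 in GENCODE release 44) had 41.8, 46.2 and 49.8 CPM in the control and 62.2, 59.7 and 61.8 CPM in the knockdown. The means were 45.9 ± 4.0 and 61.2 ± 1.34 CPM (SD, n = 3 each), and the knockdown libraries were all above the control libraries. The level was 1.33 times as high in the knockdown (log2 fold change -0.41, SE 0.14, adjusted p = 0.165). ACADVL (ENSG00000072778, chromosome 17, 7217125 to 7225266) had 929, 822 and 727 CPM in the control and 622, 634 and 614 CPM in the knockdown. Here the control libraries were all above the knockdown libraries, with means of 826 ± 101 and 623 ± 10.3 CPM (SD, n = 3 each). The ratio of control over knockdown was 1.33 (log2 fold change 0.41, SE 0.15, adjusted p = 0.190). The two-sided exact permutation test gave p = 0.1 for either gene, the smallest that 3 against 3 samples allow.

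ACAD9, which also helps to assemble respiratory complex I, had 32.0, 38.3 and 40.1 CPM in the control and 44.6, 49.4 and 48.2 CPM in the knockdown. All knockdown libraries were higher (log2 fold change -0.37, SE 0.15, adjusted p = 0.228). ACADSB, which acts on short branched chains from isoleucine, had 13.6, 12.2 and 11.1 CPM against 17.1, 15.0 and 14.9 CPM, again without overlap (log2 fold change -0.35, SE 0.19, adjusted p = 0.345). ACADS, for short chains, had 21.8, 21.0 and 18.4 CPM against 17.5, 15.1 and 18.7 CPM, where control repeat 3 lay within the knockdown range (log2 fold change 0.26, SE 0.17). The electron acceptors of these enzymes differed by less than their errors, with log2 fold changes of -0.10 for ETFA, -0.11 for ETFB and -0.12 for ETFDH, the dehydrogenase that passes the electrons to ubiquinone (SE 0.17, 0.18 and 0.20). Within a library, the CPM of ACADVL divided by that of ACADM was 22.2, 17.8 and 14.6 in the control and 10, 10.6 and 9.93 in the knockdown, a ratio chosen after the values of both genes had been seen and therefore given without a test.

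**Figure D2:**
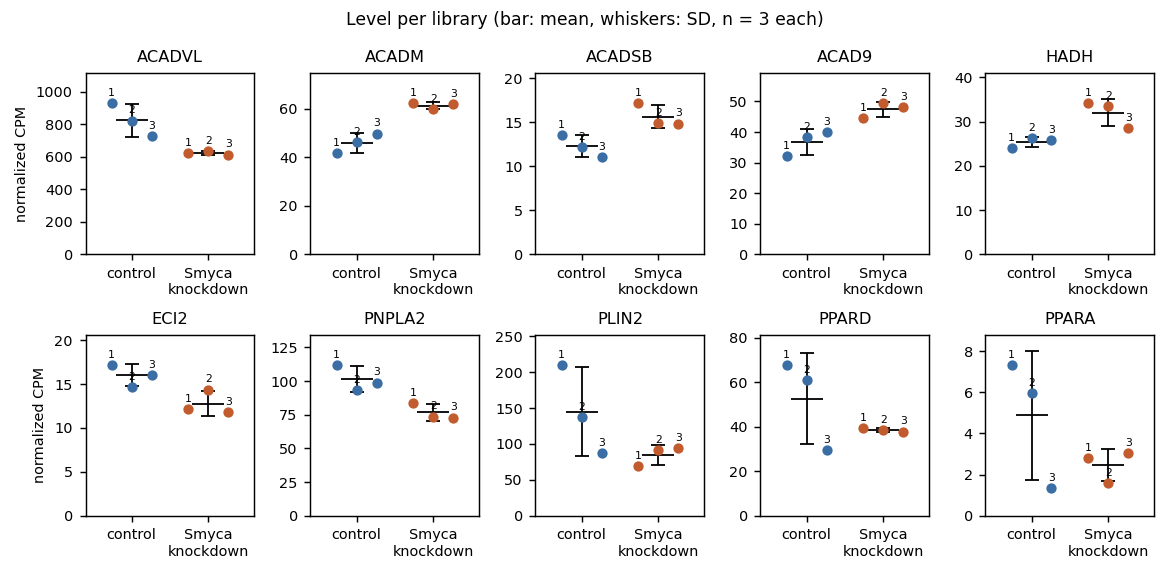
Normalized CPM (y axis, from 0) of 10 members in each library, numbered by repeat, with the mean and SD of 3 control and 3 Smyca knockdown libraries. In the first 7 genes the groups do not overlap, whereas in PLIN2, PPARD and PPARA control repeat 3 (87.3, 29.4 and 1.34 CPM) falls within or below the knockdown range.

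The 5 enzymes of the later steps all had negative log2 fold changes (46.6% of all genes did), with a median of -0.13 that became -0.29 without control repeat 3, and 0 of them had an unadjusted p under 0.05 (19.2% of all genes did). HADH, the 3-hydroxyacyl-CoA dehydrogenase for shorter chains, had 24.0, 26.2 and 25.9 CPM in the control and 34.1, 33.5 and 28.5 CPM in the knockdown. The groups did not overlap, although knockdown repeat 3 was closer to the control than to the other knockdown libraries (log2 fold change -0.34, SE 0.15, adjusted p = 0.271). ECHS1, the short-chain hydratase, had 125, 129 and 174 CPM against 165, 189 and 190.3 CPM, with control repeat 3 inside the knockdown range (log2 fold change -0.35, SE 0.17, adjusted p = 0.305). HADHA and HADHB, the subunits of the trifunctional protein that handles long chains, both had a log2 fold change of -0.09 (SE 0.15 and 0.14), so any difference in them was within the error. ACAA2, the mitochondrial thiolase, had -0.13 (SE 0.19).

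Of the enzymes for unsaturated chains, the isomerase ECI2 had 17.2, 14.7 and 16.1 CPM in the control and 12.1, 14.4 and 11.8 CPM in the knockdown. The gap between the nearest libraries of the groups was small (14.7 and 14.4 CPM), and the log2 fold change was 0.32 (SE 0.19, adjusted p = 0.377). In GENCODE release 44, 27.1% of the ECI2 exon bases are shared with the opposite-strand pseudogene TEX56P, and the strand setting of the counting is not given in the sources used here. Its mitochondrial counterpart ECI1 had 98.3, 97.3 and 170.1 CPM in the control and 141, 126 and 125 CPM in the knockdown, so control repeats 1 and 2 were below the knockdown range and control repeat 3 above it. DECR2, the peroxisomal dienoyl-CoA reductase, varied widely in both groups, with 7.34, 8.55 and 22.7 CPM against 14.2, 14.7 and 6.87 CPM (log2 fold change 0.11, SE 0.46, or 0.52 with the FPKM reads), and 14.3% of its exon bases are shared with NME4 on the same strand. DECR1, the mitochondrial reductase, had a tight control group of 28.3, 30.0 and 30.1 CPM inside a knockdown range from 26.2 to 46.7 CPM.

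ACAT1, which makes and cleaves acetoacetyl-CoA, and BDH1, which interconverts the ketone bodies, had log2 fold changes of -0.23 (SE 0.15) and -0.19 (SE 0.18). ACAT1 ranged from 80.3 to 104 CPM in the control and from 98.3 to 116 CPM in the knockdown, and BDH1 from 47.3 to 61.9 and from 52.4 to 72.6 CPM. Both pairs of ranges overlap.

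Of the remaining 6 members that act in peroxisomes, 0 had an unadjusted p under 0.05 or separate groups in the counts as deposited (19.2% and 24.8% of all genes did), and their median log2 fold change was -0.003. EHHADH, the bifunctional enzyme of straight chains, had the largest value, 0.43 (SE 0.34), from 10.2, 13.6 and 9.80 CPM in the control and 4.89, 7.60 and 12.4 CPM in the knockdown. Knockdown repeat 3 lay inside its control range, and the value was 0.11 with the FPKM reads, 0.15 without knockdown repeat 1 and 0.83 without knockdown repeat 3 (unadjusted p = 0.0271, adjusted p = 0.208, edgeR's quasi-likelihood test). HSD17B4, the bifunctional enzyme of branched and very long chains, ranged from 59.7 to 81.9 CPM in the control and from 73.2 to 84.8 CPM in the knockdown (log2 fold change -0.14, SE 0.16). Its groups separated with the FPKM reads (-0.33, adjusted p = 0.256). For ABCD3, which imports acyl-CoA across the peroxisomal membrane, the ranges were 46.0 to 64.1 and 58.5 to 66.4 CPM (-0.13, SE 0.16). ACOX3, an oxidase of branched chains, the thiolase ACAA1 and the trans-2-enoyl-CoA reductase PECR had log2 fold changes of -0.02, 0.01 and 0.22 (SE 0.20, 0.18 and 0.23). For ACAA1, 19.7% of the exon bases are shared with DLEC1 on the opposite strand.

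Both lipid droplet members had a positive log2 fold change and an unadjusted p under 0.05, against 10.4% of all genes on that side. Without control repeat 1, or without knockdown repeat 2, neither had such a p. PLIN2 (ENSG00000147872) had 210.4, 138 and 87.3 CPM in the control and 68.6, 91.0 and 94.3 CPM in the knockdown. The control libraries were spread over a wide range, from above all knockdown libraries in repeats 1 and 2 to within the knockdown range in repeat 3. The means were 145 ± 61.9 and 84.6 ± 14.0 CPM (SD, n = 3 each), a ratio of 1.72 (log2 fold change 0.78, SE 0.30, adjusted p = 0.207). PNPLA2 (ENSG00000177666), the triglyceride lipase, had 112, 93.3 and 98.9 CPM against 83.7, 73.6 and 72.9 CPM, and its groups did not overlap. The means were 101 ± 9.70 and 76.7 ± 6.05 CPM (SD, n = 3 each), a ratio of 1.32 (log2 fold change 0.40, SE 0.14, adjusted p = 0.187).

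Reads of 17 members could be shared with another gene, because their exons overlap it. Among the members without overlap between the groups, the shared part of the exon bases was 9.83% for ACADM (the pseudogene DLSTP1), 7.03% for ACAD9 (CFAP92), 1.02% for ACADVL (DLG4) and 10.5% for PNPLA2 (a lncRNA), in each case with a gene on the opposite strand. ACADM also shared 1.14% with RABGGTB on the same strand, which stranded counting could not separate. HADH shared 0.0854% with CYP2U1-AS1, and ACADSB shared none.

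**Figure D3:**
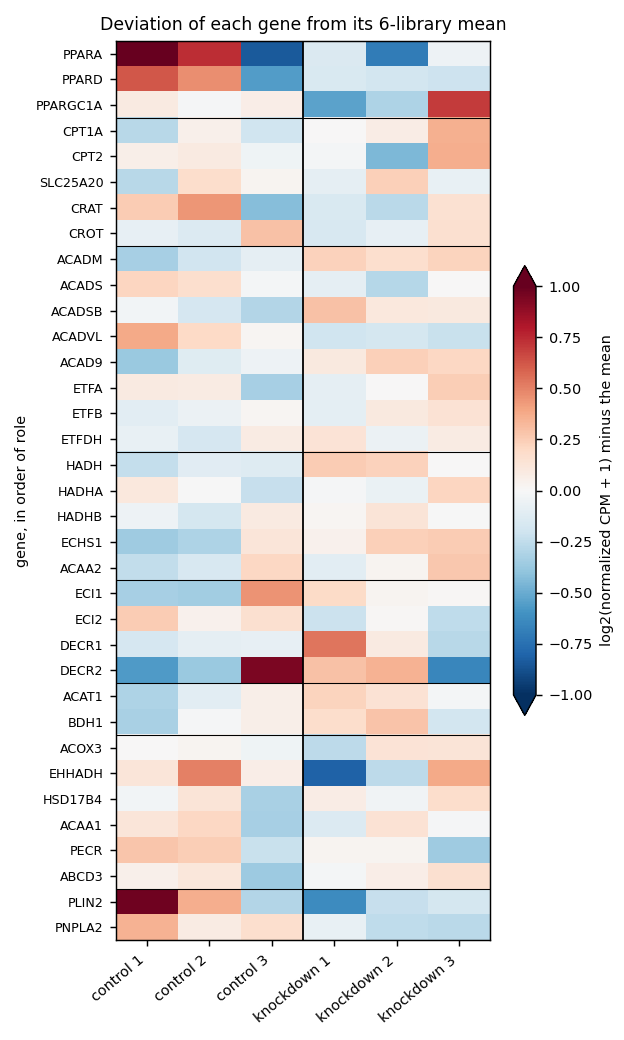
Deviation of log2(normalized CPM + 1) from the mean of the 6 libraries (colour, from -1 to 1) for each of the 35 members (rows, in order of role) in each library (columns). PPARA, PPARD, CRAT, ECI1 and DECR2 show control repeats 1 and 2 on one side of the mean and control repeat 3 on the other, and PLIN2 is highest in control repeat 1.

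The way in which the control libraries divided was counted for every member, a count chosen after the values had been seen. In 4 members (PPARA, PPARD, CRAT and ECI1) control repeats 1 and 2 lay outside the knockdown range on one side and control repeat 3 on the other, which is 11.4% of the members against 9.48% of all genes tested. In another 8 members control repeats 1 and 2 lay on the same side and control repeat 3 within the knockdown range (22.9%, against 14.5% of all genes). These were ACADS, PECR and PLIN2, with repeats 1 and 2 above, and ACAA2, ACAT1, ECHS1, ETFDH and HADHB, with repeats 1 and 2 below. Control repeat 1 was the highest of the 6 libraries in 8 members and the lowest in 10, and control repeat 3 was the lowest in 9. Knockdown repeat 3 was the highest in 10 members and the lowest in 6.

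Without control repeat 3, PPARA, PPARD and PLIN2 met the DEG criteria, all 3 higher in the control, among 1628 DEGs in all (10.5% of all genes tested in that fit). PPARA was then at a log2 fold change of 1.42, PPARD at 0.74 and PLIN2 at 1.03 (edgeR's quasi-likelihood test, with adjusted p = 0.0320, 0.0168 and 0.0228 in turn). In that fit 10 members had an unadjusted p under 0.05 (28.6%), against 29.6% of all genes. The groups of 19 members did not then overlap, 9 higher and 10 lower in the control (54.3%, against 49.2% of all genes in that fit), so that the members separated about as often as genes in general. When control repeat 2 was instead represented by the reads behind its FPKM column, it had 1.45 CPM for PPARA, 31.9 CPM for PPARD and 87.4 CPM for PLIN2, next to the values of control repeat 3. This gave log2 fold changes of 0.43, 0.15 and 0.59 in the same order (adjusted p = 0.744, 0.811 and 0.374, edgeR's quasi-likelihood test). With these reads 0 members were called, against 0.0658% of all genes (10). In that fit the groups of 9 members did not overlap, 3 higher and 6 lower in the control (25.7%, against 27.9% of all genes), since CPT1A and HSD17B4 joined the 7 named above. An unadjusted p under 0.05 was then found for 5 members (14.3%, against 20.4% of all genes). These were ACADVL and PNPLA2 on the control side and CPT1A, ACAD9 and HADH on the knockdown side, but no longer ACADM and PLIN2. The log2 fold changes of ACADM and ACADVL moved little by comparison, to -0.48 and 0.48 without control repeat 3, and to -0.33 and 0.36 with the FPKM reads.

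**Figure D4:**
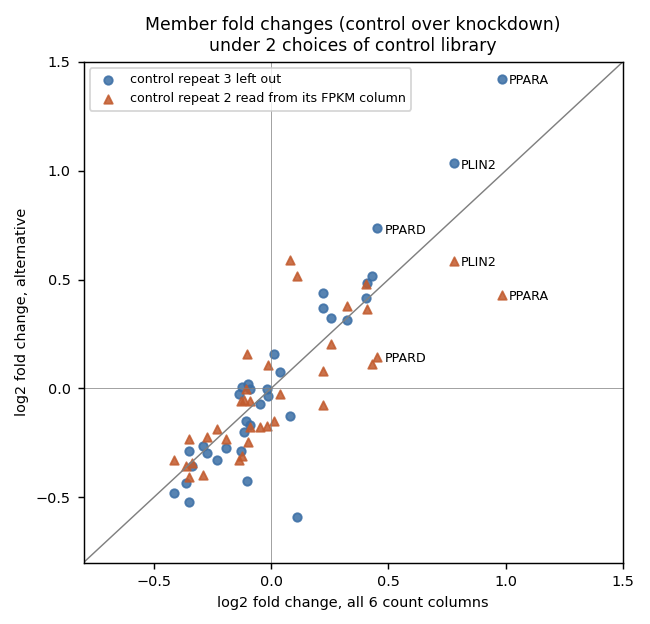
Log2 fold change of the 35 members (control over knockdown) with all 6 count columns (x axis) against its value (y axis) without control repeat 3 (circles) or with control repeat 2 read from its FPKM column (triangles). The diagonal marks equal values, and PPARA, PLIN2 and PPARD lie above it as circles (1.42, 1.03 and 0.74) and below it as triangles (0.43, 0.59 and 0.15).

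Genes of neighbouring programmes are given here beside the members, and 0 of them were DEGs, against 0.0265% of all genes (lowest adjusted p in either list 0.111). A list of 15 hypoxia-response genes had 15 positive log2 fold changes (median 1.31), and its mean deviation was 1.52, 0.80 and -0.33 on the log2 scale in the control libraries and -0.59, -0.95 and -0.45 in the knockdown libraries. At an unadjusted p under 0.05 there were 10 of them (66.7%), and 7 had separate groups (46.7%). In PLIN2, PPARA and PPARD, as in this list, control repeat 1 was highest and control repeat 2 next, but in PPARA and PPARD control repeat 3 was below every knockdown library, unlike the list. ACADVL, ACADS, ACADSB, ETFA, HADHA and PECR had the same order of the control repeats. A list of 13 genes of cholesterol and fatty acid synthesis under SREBP had 12 negative log2 fold changes (median -0.85), with mean deviations of -0.63, -0.17 and -0.43 in the control and 0.44, 0.59 and 0.19 in the knockdown. Of these 13, 10 had an unadjusted p under 0.05 (76.9%) and 8 had separate groups (61.5%). The shares over all genes were 19.2% and 24.8%. The part of either list in the members' values was not tested.

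The rest of the pathway was read from 5 lists of 115 genes that are no members, of which 104 could be tested. They held 0 DEGs, 8 genes with an unadjusted p under 0.05 on the control side and 14 on the knockdown side (7.69% and 13.5%, against 10.4% and 8.74% of all genes). Groups did not overlap in 12 genes higher and 16 lower in the control (11.5% and 15.4%, against 12.4% and 12.5%), and the median log2 fold change was 0.01. Scaling by total counts moved all genes as well as these, giving 12 genes higher and 9 lower at an unadjusted p under 0.05 (all genes 13.0% and 5.86%) and 15 higher and 10 lower without overlap (all genes 16.1% and 8.46%). With 1 library left out, the counts at an unadjusted p under 0.05 ranged from 2 higher and 5 lower (without knockdown repeat 2) to 14 higher and 20 lower (without control repeat 3), and were 4 and 5 without control repeat 1 and 4 and 11 without control repeat 2. By list, p was under 0.05 in 2 genes higher and 4 lower of 30 for mitochondrial oxidation, 1 higher and 3 lower of 27 for peroxisomal enzymes, 0 higher and 2 lower of 16 for peroxins, 3 higher and 1 lower of 11 for lipid droplets, and 2 higher and 4 lower of 20 for the PPAR axis. None of these genes had an adjusted p under 0.05.

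Among those with both an unadjusted p under 0.05 and separate groups, 12 genes are given here, the first 3 by library. PEX5, the receptor that carries enzymes into the peroxisome, had 69.6, 72.5 and 79.0 CPM in the control and 109, 123 and 117 CPM in the knockdown (log2 fold change -0.66, SE 0.14, adjusted p = 0.111). TYSND1, the peroxisomal protease that processes imported oxidation enzymes, had 38.4, 48.1 and 52.6 CPM against 89.6, 97.4 and 53.2 CPM, with knockdown repeat 3 just above the control (-0.79, SE 0.24). UCP2, a mitochondrial carrier, had 13.3, 23.9 and 21.5 CPM against 34.2, 37.6 and 38.6 CPM (-0.91, SE 0.23, adjusted p = 0.122). All 3 were higher in each knockdown library than in any control library.

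Others on the knockdown side were PPARGC1B, the coactivator related to PPARGC1A (-0.68), the corepressor NRIP1 (-0.63), the acyl-CoA synthetase ACSL1 (-0.56), the acyl-CoA binding protein DBI (-0.54), the mitochondrial DNA factor TFAM (-0.54) and the peroxisomal CoA hydrolase NUDT19 (-0.51). On the control side were UCP3 (1.32), NUDT7, another peroxisomal CoA hydrolase (1.26), and HILPDA, a lipid droplet protein that inhibits PNPLA2 and is induced by hypoxia (0.65). UCP3 and NUDT7 were at most 3.01 CPM in any library, whereas HILPDA had 21.0, 13.5 and 13.8 CPM in the control and 11.4, 10.7 and 8.72 CPM in the knockdown. Adjusted p-values of these 9 genes ranged from 0.130 (TFAM) to 0.223 (NUDT19).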

How the data were processed

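RNA-seq libraries of 3 control shRNA and 3 Smyca shRNA #1 repeats were grouped by their titles. According to the study's methods, rRNA was removed and strand-specific libraries were sequenced. The authors mapped reads with TopHat2 2.0.12 (from the submitters' processing notes) and counted them per gene with HTSeq, and the annotation release and strand setting are not given in the sources used here. The deposited count is the raw read count of each of 58302 Ensembl genes. The FPKM deposited beside it was used to derive gene lengths for RPKM and to recover the reads behind that column of control repeat 2 (16759253 in all, with 100% of values under 200 reads whole within 0.02). Symbols from a gene table matched 57532 genes.

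Counts were tested in R 4.3.3 with edgeR 4.0.16 (TMM, filterByExpr by group, quasi-likelihood test, Benjamini-Hochberg over 15075 genes) in place of the DESeq of the study, whose DEG criteria were kept. The biological coefficient of variation was 25.2%, and the counts behind a value limit its precision for low genes such as PPARGC1A. Normalized CPM are counts over TMM-scaled library sizes. The scripts were tested on simulated data. Repeat numbers did not pair the libraries (correlations of deviations 0.06, 0.08 and -0.01), so no block was used. Alternatives were RLE factors, total counts, no filter, at least 10 counts in every library, DESeq2 1.42.0, the repeat number as a block, the FPKM reads, each repeat left out, an adjusted p under 0.1 and no ratio criterion. The members and all lists were chosen with earlier results of these data known. Every member is named. Of the other pathway genes, those with p under 0.05 and separate groups are named, up to the 12 largest by absolute log2 fold change of 15.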

Additional observations from a re-analysis of the deposited data

How the results depend on the processing

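Over 13 alternatives, 418 of 454 recomputed member values kept their direction and side of the threshold, 3 (PPARA, PPARD and PLIN2 without control repeat 3) passed it, and 33 values of 11 members, none with a log2 fold change over 0.22 in size, changed sign. The sign changes outside the left-out repeats were ACAA1 (0.01 before; RLE -0.0033, DESeq2 -0.00327, no filter -0.0196, block -0.00162, FPKM reads -0.148), PPARGC1A (total counts 0.0647, block 0.401, FPKM reads 0.107), ACOX3 and SLC25A20 (total counts 0.0554 and 0.0289), DECR2 (block -0.0405), and CPT2, CRAT and ECI1 (FPKM reads -0.0251, -0.0772 and 0.159). With each repeat left out, the log2 fold change ranged from -0.22 to 0.00418 for ABCD3, -0.0984 to 0.157 for ACAA1, -0.15 to 0.0487 for ACOX3, -0.17 to 0.28 for CPT2, -0.13 to 0.21 for CROT, -0.59 to 0.39 for DECR2, -0.43 to 0.0313 for ECI1, -0.18 to 0.0210 for ETFA, -0.52 to 1.59 for PPARGC1A and -0.17 to 0.0822 for SLC25A20. Over the same fits, members ranged from 0 to 3 DEGs higher in the control, from 0 to 6 higher and 0 to 4 lower at p under 0.05, and from 3 to 9 higher and 4 to 10 lower without overlap (all genes 10.8% to 29.6% and 29.4% to 49.2%), and their median from -0.115 to -0.0227. The other pathway genes ranged from 2 to 14 higher and 5 to 20 lower at p under 0.05, and from 13 to 32 higher and 17 to 28 lower without overlap. Members at p under 0.05 were 0 without control repeat 1, and 1 without knockdown repeat 2. Total counts moved the median of all genes from 0.04 to 0.11 and the members' from -0.0886 to -0.0205. Without overlap there were then 5 members higher and 3 lower (22.9%, against 24.6% of all genes). At p under 0.05 there were 3 higher and 1 lower (11.4%, against 18.9% of all genes). Of the other pathway genes, 12 were higher and 9 lower at p under 0.05, and 15 higher and 10 lower without overlap. DEGs among all genes numbered 4 in the main fit, 8 with total counts, 916 with no filter, 820 with DESeq2, 10 with FPKM reads, 0 with the block and 0 to 1628 with a repeat left out. The causes were not tested. MIR23AHG passed the threshold with no filter (1.49), with DESeq2 (1.51) and without control repeat 3 (1.33 to 1.81 over the left-out repeats). A replicate block by repeat number, which rests on a shared number and no stated pairing, called 0 members, as before. With the block 2 members were higher and 2 lower at p under 0.05 (11.4%, against 17.0% of all genes). The members' median was then -0.09 and MIR23AHG had 1.56. With at least 10 counts in every library, 34 members were tested. For genes near 1 CPM, depth limits what can be seen.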
